A study of Arabidopsis thaliana with 6 samples.

Results

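The WRKY transcription factors of Arabidopsis thaliana are described here across wild type (WT) seedlings and 2 ago2 mutant lines, with and without gamma irradiation. Members were the loci reached by a probe's accession whose symbol or synonym is WRKY followed by a number, with WRKY53 and WRKY70 left out. The rule named 70 loci, of which 68 had a matched probe and 60 reached a signal well above background on 2 or more of the 6 arrays. These 60 were among 20171 loci measured that way. Every plant was of the Columbia-0 ecotype, and WT carried no ago2 mutation, while ago2a and ago2c were mutant lines of AGO2, the gene of ARGONAUTE2, a protein that binds small RNAs. The labels do not describe the mutation of either line. Whole seedlings aged 14 days were mock treated or received 200 Gy of gamma radiation from a cobalt source at 50 Gy per hour, and RNA was taken 24 hours later. Each of the 6 conditions had 1 array, labelled with Cy3 and hybridised with RNA of at least 10 seedlings pooled from 3 independent batches. No condition therefore had a replicate array.

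WRKY proteins are plant transcription factors that carry a WRKY domain followed by a zinc finger and bind the W box, a short DNA element found in many defence gene promoters. They are sorted into group I, whose proteins carry a pair of WRKY domains, groups IIa to IIe, and group III, whose zinc finger is of another type. In seedlings they are known from pathogen defence, salicylic acid and jasmonate signalling, abscisic acid responses, senescence and phosphate supply, and many are themselves induced early by wounding or elicitation. A few, such as WRKY52, are immune receptors with a WRKY domain joined to them.

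The targeted gene AGO2 had scaled signals of 209.7 and 439 in WT mock and irradiated, and it was not well above background on any of the 4 ago2 arrays, a difference of at least 12.3-fold. A scaled signal is the processed intensity after every array was brought to the same 75th percentile, and it is comparable between arrays for 1 gene but not between genes. Where a pair of scaled signals is given for a line, the first is mock and the second irradiated. Median array signals ran from 229.6 to 469, 70.5% to 73.4% of probes were well above background, and none was saturated. Both WT arrays and both ago2a arrays lay on slide 1 and both ago2c arrays on slide 2, so that the ago2c line and its slide cannot be told apart. The arrays fell into 2 sets by the agreement between probes of the same locus. WT mock, WT irradiated and ago2a mock formed one set and ago2a irradiated, ago2c mock and ago2c irradiated another. Among 5615 loci with several probes, between 0.142% and 0.445% had probes that disagreed by over 2-fold within a set and between 10.1% and 17.7% across sets. The responses of WT and of ago2c were therefore measured within a set, and the response of ago2a across sets. Root and shoot marker genes were both present, as the whole-seedling label has it.

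None of the 60 WRKY genes passed the test for irradiation. Over all loci 0.223% were called higher and 0.0149% lower (limma, line as a block, Benjamini-Hochberg adjusted p), and the smallest adjusted p of a WRKY gene was 0.15. At an unadjusted p under 0.05 there were 12 WRKY genes, or 20.0%, against 13.9% of all loci. With WT left out, the ago2 lines alone gave 8 WRKY genes called lower, WRKY9, WRKY24, WRKY31, WRKY36, WRKY56, WRKY65, WRKY71 and WRKY72, where 4.7% of all loci were. That fit had 1 residual degree of freedom, and its ago2a pair lies across array sets. On ago2a irradiated and both ago2c arrays WRKY31 and WRKY71 were not well above background, so their calls rest on dim values. The median response, log2 of irradiated over mock, was 0.11 (WT), -0.23 (ago2a) and -0.08 (ago2c), with an SD of 0.17 between the 3 line medians. The medians of all loci were -0.01, 0.06 and 0.01. The family median thus lay above that of all loci in WT and below it in both ago2 lines, which was not tested. Single members differed from their mock array by far more. The smallest p belonged to WRKY58, a negative regulator of systemic acquired resistance, which is named here because of that value. It had scaled signals of 24.8 and 44.6 (WT mock and irradiated), 33.1 and 51.9 (ago2a), and 18.3 and 27.0 (ago2c). Each irradiated array lay above its mock (mean response 0.68 ± 0.10, SE of the limma fit), but WT mock and both ago2c arrays were not well above background.

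In WT, 3 WRKY genes were at least 2-fold higher after irradiation (1.27% of all loci were), namely WRKY38, WRKY50 and WRKY60, and WRKY51 and WRKY59 were at least 2-fold lower (1.57%). In ago2a 1 was at least 2-fold higher (1.39%) and 12 were at least 2-fold lower (7.39%). In ago2c 1 was higher (1.27%) and 7 were lower (5.5%). WRKY50 was the single member at least 2-fold higher in all 3 lines (0.416%). The share of WRKY genes at least 2-fold lower in the ago2 lines was above that of all loci, and no test was possible for 1 array against 1. These counts use the measured values, and with each array not well above background set to its bound the lower counts were 11 in ago2a, without WRKY71, and 6 in ago2c, without WRKY43 (7.13% and 4.89% of all loci). With another background correction (normexp) the lower counts were 4 in ago2a and 1 in ago2c, and the shares of all loci with it are not given here. Of the members, 16 were higher in all 3 lines (21.4% of all loci) and 13 were lower in all 3 (18%). A further 15 were higher in WT and lower in both ago2 lines (12%), and only WRKY2 and WRKY16 had the opposite pattern (16.3%). Their WT responses were -0.01 and -0.03, and the other probes of WRKY16 had WT responses above 0. Across the 60 members Pearson's r of the responses was 0.39 between WT and ago2a, 0.24 between WT and ago2c and 0.65 between ago2a and ago2c, where all loci gave 0.26, 0.28 and 0.60. These values describe genes that share 6 arrays and are not independent.

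**Figure D1:**
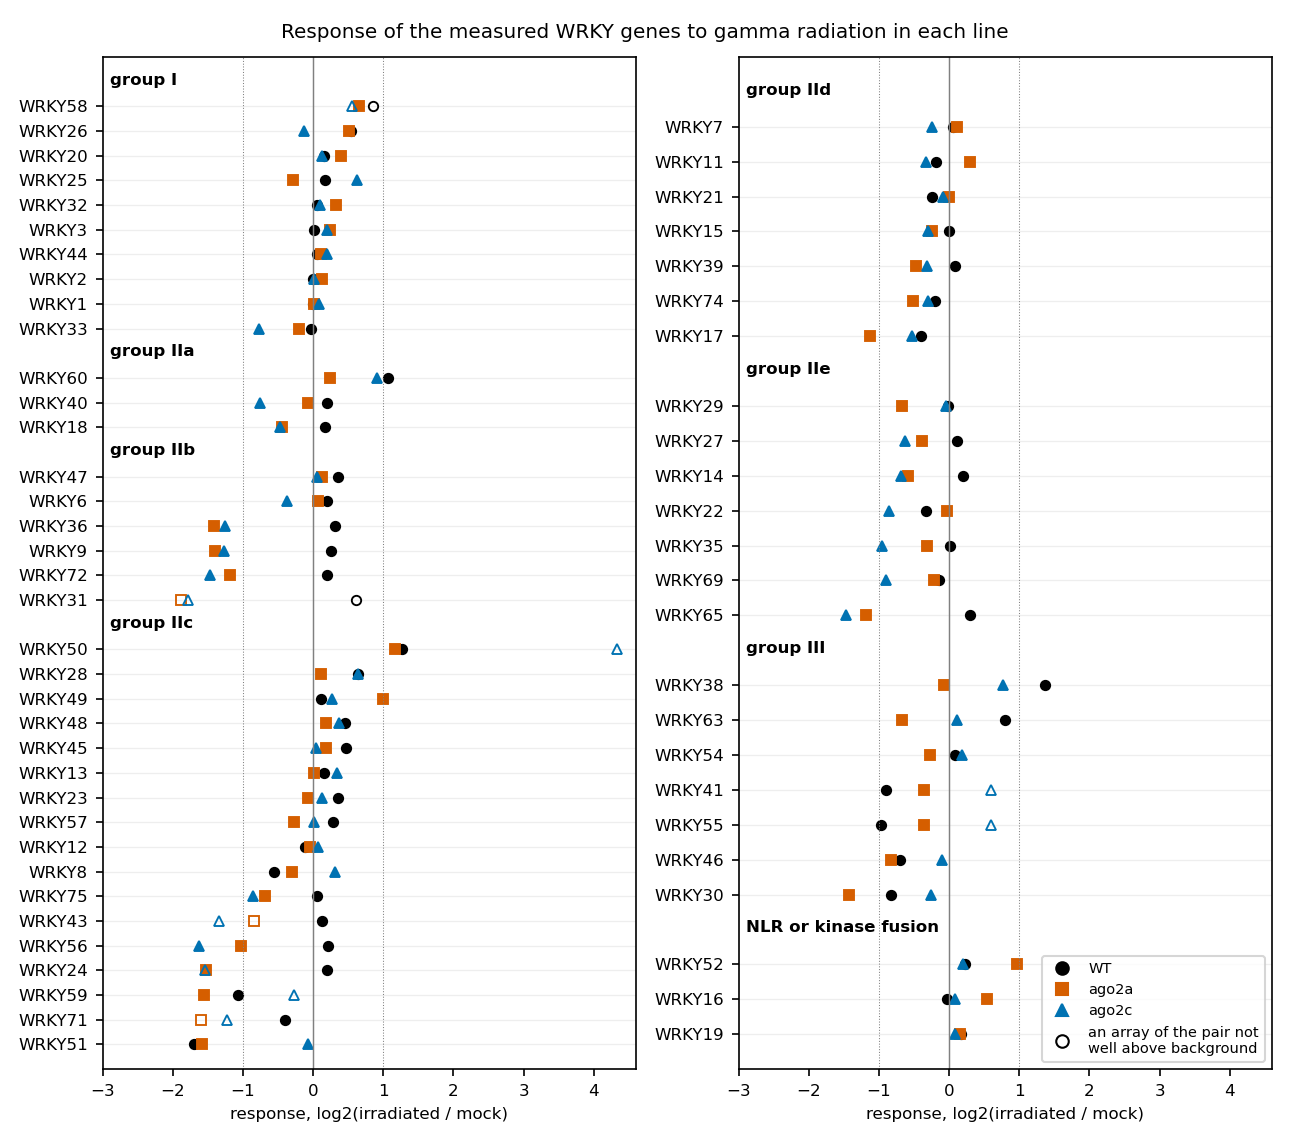
Response to irradiation, log2 of irradiated over mock (horizontal axis), of each of the 60 measured WRKY genes (rows, by structural group) in WT (black circles), ago2a (orange squares) and ago2c (blue triangles). Each point is 1 pair of arrays, open where an array of the pair was not well above background, and dotted lines mark a 2-fold difference. WRKY50 lies to the right in all 3 lines, and in group IIb 4 of 6 genes lie left of the dotted line in both ago2 lines and right of 0 in WT.

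Group IIa holds WRKY18, WRKY40 and WRKY60, which act together in abscisic acid signalling and basal defence and are themselves induced early by elicitors. WRKY60 had scaled signals of 1186 and 2477 (WT mock and irradiated), 1765 and 2095 (ago2a), and 765 and 1441 (ago2c). The irradiated array was the higher in every line, by 2.09-fold, 1.19-fold and 1.88-fold. The mean response was 0.74 ± 0.19 (SE of the limma fit, limma adjusted p = 0.27). WRKY40 had 8662 and 9898 (WT), 9974 and 9484 (ago2a), and 7938 and 4688 (ago2c). The first 5 of these arrays lay close together and ago2c irradiated stood 1.69-fold under its mock. WRKY18 had 6092 and 6866 (WT), 8287 and 6114 (ago2a), and 6473 and 4676 (ago2c), so that irradiated was the higher in WT and the lower in both ago2 lines. The response difference of WRKY18, ago2 lines minus WT, was -0.63 ± 0.23 (SE, limma adjusted p = 0.57), less than the spread between these samples could call.

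WRKY33 and WRKY11 are given because their probes, with those of WRKY40 and WRKY18, had the highest mean signals, which sets no order of transcript levels. WRKY33, a regulator of camalexin synthesis and of resistance to necrotrophic fungi, had 8483 and 8279 (WT), 9902 and 8620.3 (ago2a), and 7951 and 4649 (ago2c). It was within 1.15-fold of its mock in WT and ago2a and 1.71-fold lower after irradiation in ago2c, with a mean response of -0.34 ± 0.18 (SE, limma adjusted p = 0.46). WRKY11, a negative regulator of basal resistance to bacteria, had 7568 and 6617 (WT), 7654 and 9393 (ago2a), and 9322 and 7424 (ago2c), and its 6 values stayed within 1.42-fold of each other.

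WRKY50 had the largest mean response among the members that were higher after irradiation in all 3 lines. WRKY50 (AT5G26170) acts in salicylic acid signalling, where with WRKY51 it represses jasmonate responses. Its scaled signal was 441 and 1056 (WT mock and irradiated), 708 and 1587 (ago2a), and 34.0 and 684 (ago2c). The irradiated arrays were 2.40-fold and 2.24-fold higher in WT and ago2a, and at least 20.1-fold higher in ago2c, where the mock array was not well above background. The 3 irradiated arrays all lay above their own mocks, but the ago2c irradiated array was below ago2a mock, and the mean response was 2.25 ± 0.72 (SE, limma adjusted p = 0.32). That mean includes the ago2c value against a dim mock array, and it was 1.21 without ago2c. WRKY38, a repressor of salicylic acid defence of group III, was at least 2-fold higher in WT alone, with 178 and 460.0 (WT), 272 and 257 (ago2a), and 72.3 and 124 (ago2c).

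After WRKY50, WRKY60 and WRKY58 the next largest were WRKY52, WRKY28 and WRKY49. WRKY52, also known as RRS1, is an immune receptor that pairs with RPS4, and it had 558 and 653 (WT), 615 and 1201 (ago2a), and 1187 and 1359.7 (ago2c). The irradiated array was the higher in each line, and ago2a irradiated and both ago2c arrays, which form the second array set, were the highest. WRKY28, an activator of the salicylic acid synthesis gene ICS1, had 102 and 158 (WT), 135 and 146 (ago2a), and 81.3 and 127 (ago2c), a mean response of 0.46 ± 0.15 (SE, limma adjusted p = 0.32). The second probe of WRKY28 had an ago2a response of -0.27, and by that probe the mean response was 0.21. WRKY49 had 309.6 and 334 (WT), 217 and 432 (ago2a), and 401 and 486 (ago2c). Its 1.99-fold difference in ago2a lay across array sets, and the differences within a set were 1.08-fold and 1.21-fold.

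Another 7 members were named for a higher signal in all 3 lines, and each differed by less. WRKY48, a negative regulator of basal resistance, had a mean response of 0.33 ± 0.10 (SE of the limma fit). WRKY45, which acts in phosphate uptake, had one of 0.24 ± 0.12. WRKY20 had 0.22 ± 0.11, WRKY47 had 0.18 ± 0.10, and WRKY13, which acts in stem lignification, had 0.17 ± 0.11. WRKY32 had 0.16 ± 0.10 and WRKY3, which acts in resistance to necrotrophs, had 0.15 ± 0.10. Their limma adjusted p ran from 0.31 to 0.53, so that no response exceeded the spread between lines at the threshold. For WRKY32 and WRKY3 the median of the other probes of the locus gave a mean response below 0. The second probe of WRKY47 had responses of -0.22 in ago2a and -0.003 in ago2c.

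Among members lower in all 3 lines and well above background on all 3 mock arrays, WRKY51 and WRKY30 had the most negative mean response. WRKY71 (-1.07) and WRKY59 (-0.97) were not well above background on ago2c mock. WRKY51 had scaled signals of 1022 and 316 (WT), 2958 and 989 (ago2a), and 60.8 and 57.6 (ago2c). The irradiated array was 3.23-fold lower in WT and 2.99-fold lower in ago2a, while the ago2c arrays were both low and differed by 1.06-fold (mean response -1.12 ± 0.37, SE, limma adjusted p = 0.33). WRKY30, a gene known for quick induction by oxidative stress and pathogens, had 151 and 84.9 (WT), 1199 and 447 (ago2a), and 37.1 and 31.2 (ago2c). It was 1.77-fold, 2.68-fold and 1.19-fold lower after irradiation, and the mean response was -0.83 ± 0.25 (SE, limma adjusted p = 0.30). WRKY59 was at 582 and 277 in WT and 1502 and 509 in ago2a, 2.1-fold and 2.95-fold lower after irradiation, and was not well above background in ago2c.

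Lower in all 3 lines by smaller amounts were WRKY17, WRKY46 and others. WRKY17, a paralogue of WRKY11 with a like role in basal resistance, had 632 and 478 (WT), 847 and 389 (ago2a), and 382 and 265 (ago2c), a mean response of -0.69 ± 0.18 (SE, limma adjusted p = 0.26). WRKY46, which acts in salicylic acid defence, drought and brassinosteroid responses, had 3568 and 2193 (WT), 6364 and 3598 (ago2a), and 1253 and 1169 (ago2c). It was 1.63-fold and 1.77-fold lower after irradiation in WT and ago2a and 1.07-fold lower in ago2c. The rest of those named were WRKY69 (mean response -0.42 ± 0.19, SE), WRKY22 (-0.41 ± 0.19), WRKY33, WRKY74 (-0.34 ± 0.11), WRKY29 (-0.24 ± 0.17), WRKY15 (-0.18 ± 0.11) and WRKY21 (-0.12 ± 0.10). WRKY22 and WRKY29 act downstream of a MAP kinase cascade in the response to flagellin, and WRKY15 acts in stress signalling between organelles and the nucleus.

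A set of 6 WRKY genes was at least 2-fold lower after irradiation in both ago2 lines and not in WT, where 3.48% of all loci were. The count, made after values were seen, was 1 with normexp correction and 3 with scaling to the array median or with the authors' values. The shares of all loci under those settings are not given here. They were WRKY9 (AT1G68150), WRKY36 (AT1G69810) and WRKY72 (AT5G15130) of group IIb, WRKY24 (AT5G41570) and WRKY56 (AT1G64000) of group IIc, and WRKY65 (AT1G29280) of group IIe. WRKY36 is known as a repressor of HY5 that binds the ultraviolet B receptor, WRKY9 from suberin formation in the root, and WRKY72 from basal defence against nematodes and oomycetes. WRKY36 had 240.1 and 297 (WT), 280.3 and 106 (ago2a), and 163 and 67.9 (ago2c). WRKY9 had 232 and 277 (WT), 247 and 94.1 (ago2a), and 157 and 65.5 (ago2c). WRKY72 had 109.6 and 126 (WT), 152 and 67.3 (ago2a), and 99.7 and 35.8 (ago2c). In these 3 genes both irradiated ago2 arrays lay below all mock arrays and below WT irradiated, which was the highest of the 6 for WRKY36 and WRKY9.

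WRKY65 had 1792 and 2202 (WT), 2347 and 1035 (ago2a), and 1610.5 and 580.3 (ago2c). WRKY24 had 80.6 and 92.6 (WT), 108 and 37.3 (ago2a), and 55.1 and 18.9 (ago2c), the last not well above background. WRKY56 had 151 and 175 (WT), 167 and 82.1 (ago2a), and 132 and 42.5 (ago2c). In each of them the irradiated array was again the higher one in WT and the lower one in ago2a and ago2c. The second probe of WRKY56 disagreed with the first, with a WT response of -1.31, so that its place in this set depends on the probe.

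The response difference, the mean response of the ago2 lines minus that of WT, was -1.64 ± 0.24 for WRKY36, -1.59 ± 0.24 for WRKY9, -1.74 ± 0.23 for WRKY24 and -1.62 ± 0.26 for WRKY65 (SE, limma interaction term, adjusted p = 0.16 for each). It was -1.53 ± 0.26 for WRKY72 (limma adjusted p = 0.17) and -1.55 ± 0.34 for WRKY56 (limma adjusted p = 0.23). No WRKY gene passed this test, nor did any of all loci (0% higher and 0% lower). The call depended on the processing, since WRKY36, WRKY38 and WRKY65 passed as lower with normexp correction, where 3.09% of all loci did. With scaling to the array median WRKY24 and WRKY31 passed as lower (2.65% of all loci) and WRKY50 as higher (0.501%). In the main setting 12 WRKY genes (20.0%) against 8.82% of all loci had an unadjusted p under 0.05. WRKY31 of group IIb had the most negative difference, -2.44 ± 0.23 (SE, limma adjusted p = 0.16), but it was well above background on 2 arrays only, WT irradiated and ago2a mock. The fold of ago2c irradiated against its mock, which was measured within an array set, was 2.40 for WRKY36, 2.40 for WRKY9, 2.78 for WRKY72, 2.78 for WRKY65 and 3.10 for WRKY56, and for WRKY24 it was at least 2.13.

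Root marker genes were mostly lower after irradiation in the ago2 lines as well. Of 14 root markers 11 were lower in both ago2 lines, and 6 of these, PYK10, COBL9, EXPA7, EXPA18, PRP3 and IRT1, were higher in WT as the WRKY genes were. CASP1, CASP2, RHD6, TIP2;3 and PLT1 were lower in WT too. NRT2.1 went the other way (-1.41, 0.96 and 1.65 in WT, ago2a and ago2c), and SCR and WOX5 were not lower in ago2a (0.42 and 0.54). At least 2-fold lower were 2 (WT), 8 (ago2a) and 9 (ago2c) markers, where all loci had 1.57%, 7.39% and 5.5%. Their median response was -0.02 (WT), -1.43 (ago2a) and -1.51 (ago2c). PYK10 made up 88.3% to 93.1% of the summed scaled signal of the markers on every array. Summed over the other 13 it was 11310 and 10171 (WT), 11176 and 5154 (ago2a), and 8997.5 and 3849.5 (ago2c). NRT2.1, IRT1, PLT1 and WOX5 were not well above background on 2 or 3 of the arrays each. The 7 shoot markers had median responses of -0.02, 0.39 and 0.14. Among them LHCB2.1 was lower in every line (-0.37, -1.32 and -0.10 in WT, ago2a and ago2c). Fewer root cells and less RNA per root cell cannot be told apart in whole seedlings, and the part of either in the WRKY values was not tested.

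**Figure D2:**
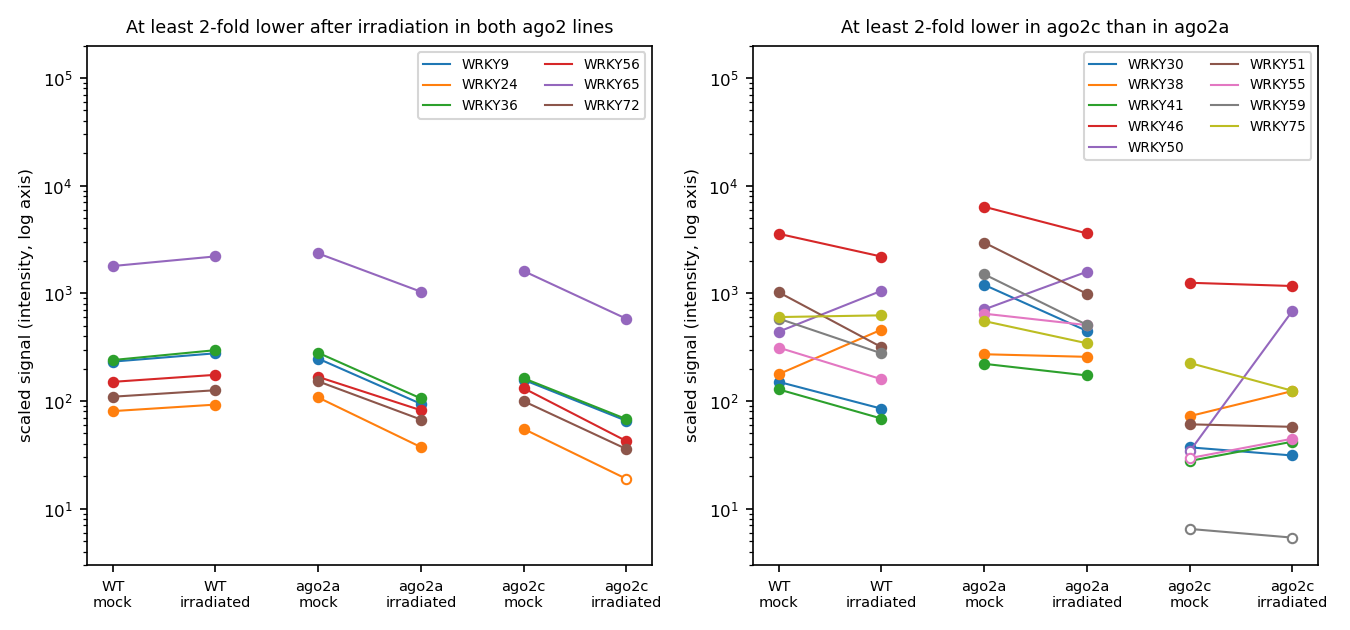
Scaled signal (log axis) on the 6 arrays of the 6 WRKY genes at least 2-fold lower after irradiation in both ago2 lines and not in WT (left), and of the 9 WRKY genes at least 2-fold lower in ago2c than in ago2a in both treatments (right). Lines join mock and irradiated arrays of 1 line, and open circles are arrays on which the gene was not well above background. On the left the lines slope up in WT and down in ago2a and ago2c, and on the right the ago2c values lie lowest.

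**Figure D3:**
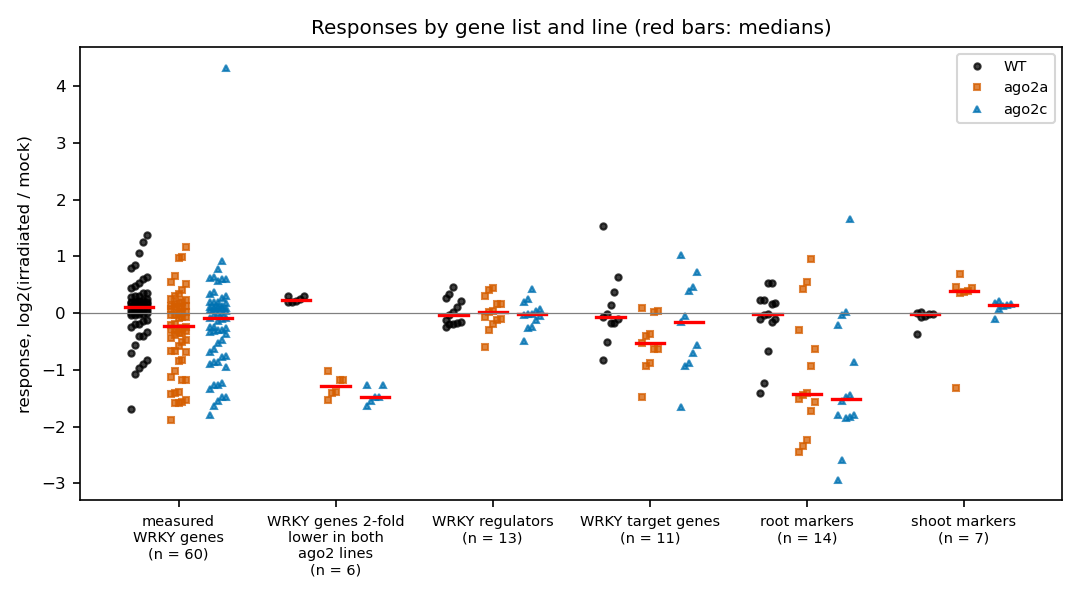
Response to irradiation (log2 of irradiated over mock) of gene lists in WT, ago2a and ago2c, with 1 point per gene and a red bar at the median. The second list was chosen by these same values and is drawn for comparison by eye. The medians of the 14 root markers in the ago2 lines lie at -1.43 and -1.51, while those of the 60 WRKY genes lie at -0.23 and -0.08.

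By structural group, group IIb stood lowest after irradiation in the ago2 lines. Its 6 measured genes of 8 named had a median response of 0.28 (WT), -1.29 (ago2a) and -1.26 (ago2c), and all 6 were higher in WT. Apart from WRKY9, WRKY31, WRKY36 and WRKY72 it holds WRKY6, a regulator of senescence and of the phosphate exporter gene PHO1, and WRKY47. WRKY6 had responses of 0.20, 0.07 and -0.37 in WT, ago2a and ago2c, and WRKY47 had 0.35, 0.12 and 0.06, so that neither was 2-fold lower in an ago2 line. Group IIe had medians of 0.02, -0.39 and -0.86, and its 7 members were lower in both ago2 lines, which held for 28 of the 60 WRKY genes and 6051 of the 20171 loci. Besides WRKY65 the group held WRKY35 with responses of 0.02, -0.32 and -0.95, WRKY69 with -0.14, -0.21 and -0.91, and WRKY22 with -0.34, -0.03 and -0.86. WRKY14 had 0.20, -0.58 and -0.68, and WRKY27, which affects symptom development in bacterial wilt, had 0.12, -0.39 and -0.63.

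Group I, with 10 measured genes of 13, differed little between treatments, with medians of 0.05, 0.18 and 0.11. Its WRKY25 and WRKY26 act with WRKY33 in heat tolerance. WRKY25 had 3895 and 4387 (WT), 6085 and 4967 (ago2a), and 1872 and 2890.1 (ago2c), which put ago2c lowest in both treatments. WRKY26 had 1244 and 1802 (WT), 1332 and 1907 (ago2a), and 1341 and 1223 (ago2c), so that the irradiated array was 1.45-fold and 1.43-fold higher in WT and ago2a and 1.1-fold lower in ago2c. WRKY1, WRKY2 and WRKY44, the last also called TTG2 and needed for trichomes and seed coat, all had responses between -0.01 and 0.20. Group IId, whose proteins bind calmodulin, had medians of -0.19, -0.24 and -0.30, with WRKY7 (0.05, 0.12 and -0.24) and WRKY39 (0.09, -0.47 and -0.32) not yet described. The 3 receptor or kinase fusions, WRKY16, WRKY19 and WRKY52, had medians of 0.17, 0.55 and 0.09.

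Group IIc, the most numerous with 17 of 18 measured, had medians of 0.16, -0.27 and 0.05. WRKY75, which acts in phosphate starvation, root hairs and senescence, had 602 and 624 (WT), 552 and 344 (ago2a), and 226 and 124 (ago2c). It was within 1.04-fold of mock in WT and 1.61-fold and 1.81-fold lower after irradiation in the ago2 lines (difference -0.82 ± 0.24, SE, limma adjusted p = 0.38). WRKY43, WRKY71 and WRKY24 were also lower in both ago2 lines. WRKY71, which promotes shoot branching, had 37.0 and 28.2 (WT), 33.8 and 11.2 (ago2a), and 33.5 and 14.3 (ago2c), and was not well above background on 3 of these arrays. WRKY57, known from drought tolerance, had 0.29, -0.27 and 0.01, and WRKY23, an auxin-responsive gene of the root, had 0.36, -0.08 and 0.12. WRKY8, known from virus defence, had -0.56, -0.30 and 0.31, and WRKY12, which acts in stem pith, had -0.12, -0.04 and 0.08.

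No WRKY gene passed the test of ago2 lines against WT (0% of all loci called higher and 0.00496% lower, limma with irradiation as a term), and the smallest adjusted p was 0.64. At an unadjusted p under 0.05 there was 1 WRKY gene, or 1.67%, against 3.91% of all loci. The median difference between ago2 lines and WT was -0.05 in mock and -0.29 after irradiation, with an SD of 0.24 and 0.36 between the 2 ago2 lines, while all loci gave 0.01 and 0.06. Members were ranked here only if the sign was the same in 4 of 4 pairs of an ago2 and a WT array. Among these WRKY52 had the largest positive difference, 0.79 ± 0.29 (SE), followed by WRKY11 with 0.25 ± 0.16. The pairs share the WT arrays. Without that condition WRKY30 (0.48) and WRKY63 (0.25) also lay above WRKY11. WRKY59 (-2.48), WRKY9 (-1.03), WRKY36 (-0.99) and others lay below WRKY71, which is given next. By the second probe of WRKY11, ago2c irradiated (998.7) lay below WT irradiated (1149.5). For WRKY52 the mock difference of ago2c from WT was 1.09 by the first probe and 0.43 by the second. On the lower side, under the same condition, WRKY75 had -1.18 ± 0.58 (SE), WRKY71 -0.65 ± 0.26 and WRKY45 -0.25 ± 0.12. WRKY74 had -0.24 ± 0.11 and WRKY13 -0.23 ± 0.11. WRKY47, WRKY12 and WRKY1 followed with -0.21, -0.16 and -0.06 (limma adjusted p from 0.64 to 0.76 on this side). These values depended on the array sets and on single lines. With array set as a block WRKY52 was at 0.10 and WRKY75 at -0.17, and leaving out ago2c or ago2a gave 0.51 and 1.07 for WRKY52 and -0.49 and -1.87 for WRKY75. WRKY52 was highest on the arrays of the second set, ago2a irradiated and both of ago2c, whereas in mock ago2a stood 1.1-fold over WT within a set.

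A set of 9 WRKY genes of groups III and IIc was at least 2-fold lower in ago2c than in ago2a in both treatments. A comparison of ago2c with ago2a, with line and irradiation as terms, was added after values had been seen. The treatments of each line stood in for replicates, so its p-values do not measure the spread between replicate samples of a line. In this comparison 2 WRKY genes, or 3.33%, were lower in ago2c, WRKY59 (AT2G21900) and WRKY30 (AT5G24110). Few loci passed (0.203% of all loci were called lower and 0.00496% higher). At an unadjusted p under 0.05 there were 19 WRKY genes, or 31.7%, against 10.4% of all loci. WRKY59 had scaled signals of 582 and 277 (WT), 1502 and 509 (ago2a), and 6.49 and 5.39 (ago2c), where neither array was well above background. It entered the test through its WT and ago2a arrays, and its p rests on ago2c values that were not well above background. Over both treatments ago2c was at least 30.7-fold under ago2a and at least 14.1-fold under WT (limma adjusted p = 0.032 for ago2c against ago2a). WRKY30, with values given above, was 32.3-fold lower in ago2c than in ago2a in mock and 14.3-fold lower after irradiation (log2 -4.43 ± 0.30, SE, limma adjusted p = 0.049). Its signal in WT lay between those of the lines, with ago2a 7.96-fold over WT in mock. With no filter on dim probes, or with the median of the other probes, no WRKY gene passed, and with scaling to the array median 5 did, where 0.947% of all loci did. Without the WT arrays, which leaves 1 residual degree of freedom, 5 passed as lower (1.1% of all loci), WRKY30, WRKY51, WRKY55, WRKY59 and WRKY75.

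At least 2-fold under ago2a were 16 WRKY genes of ago2c in mock (5.77% of all loci) and 10 after irradiation (3.68%), and none was 2-fold over it in either treatment (1.05% and 0.387%). In both treatments there were 9 (15% against 2.26%), and none was at least 2-fold over ago2a in both (0.0595%). The 9 were WRKY30, WRKY38, WRKY41, WRKY46 and WRKY55 of group III and WRKY50, WRKY51, WRKY59 and WRKY75 of group IIc. WRKY51 was 48.7-fold and 17.2-fold lower in ago2c in mock and irradiated seedlings (log2 -4.85 ± 0.45, SE, limma adjusted p = 0.068). WRKY55, known from leaf senescence, had 313 and 159 (WT), 647 and 507 (ago2a), and 29.5 and 44.6 (ago2c). Its ago2c arrays were at least 20.7-fold and 11.4-fold under those of ago2a (limma adjusted p = 0.076), the mock array of ago2c being not well above background, with WT between them.

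WRKY41, which acts in seed dormancy and defence, had 128 and 68.7 (WT), 221 and 173 (ago2a), and 27.8 and 41.9 (ago2c), at least 7.08-fold and 4.12-fold lower in ago2c. WRKY46 was 5.08-fold and 3.08-fold lower in ago2c than in ago2a (log2 -1.98 ± 0.22, SE, limma adjusted p = 0.085). In mock WRKY50 was at least 20.8-fold lower and after irradiation 2.32-fold lower, so that its gap was narrower after irradiation. WRKY38 was 3.76-fold and 2.08-fold lower and WRKY75 2.45-fold and 2.76-fold lower. In all 9 genes ago2c was the lowest of the lines in both treatments. Against WT, ago2a was at least 2-fold higher in mock for 6 WRKY genes (1.22% of all loci), WRKY30, WRKY31, WRKY51, WRKY55, WRKY59 and WRKY63, and lower for none (0.441%). With arrays not well above background at their bound WRKY31 left this count, giving 5 (1.09% of all loci). It also left the mock count of ago2c under ago2a, giving 15 (4.93%), while the 9 in both treatments stayed (1.87%). In the same mock comparison ago2c was at least 2-fold lower than WT for 11 (3.81%) and higher for WRKY52 alone (0.773%). After irradiation ago2a was at least 2-fold higher than WT for WRKY30, WRKY41, WRKY51 and WRKY55 (1.25%). It was at least 2-fold lower for 7 (6.01%), or 5 at the bound (5.59%). By the same threshold ago2c was higher for WRKY52 (0.858%) and lower for 16 (9.86%), or 15 at the bound (8.77%). The second probe of WRKY52, at 580 and 674 (WT) and 779 and 957 (ago2c), did not reach 2-fold in either treatment. These comparisons share arrays with each other and with the comparison of lines.

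**Figure D4:**
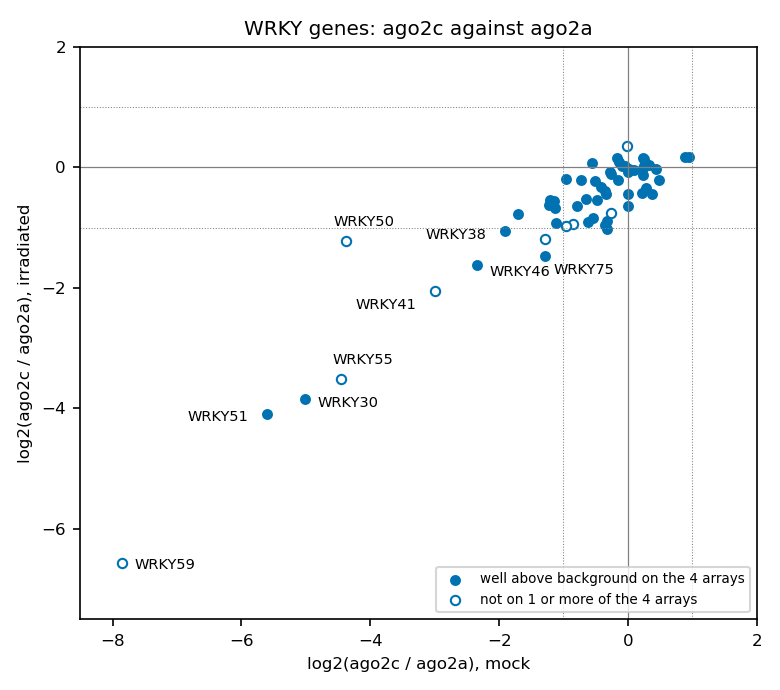
Log2 of ago2c over ago2a in mock (horizontal axis) and irradiated seedlings (vertical axis) for the 60 measured WRKY genes, with 1 point per gene, open where the gene was not well above background on 1 or more of the 4 arrays. Dotted lines mark a 2-fold difference. The 9 named genes lie at lower left, past the dotted lines in both treatments, as does WRKY31, which was not well above background on 3 of the 4 arrays, and no gene lies past them at upper right.

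Group III had the largest median gap between the lines, -2.34 in mock and -1.62 after irradiation (log2 of ago2c over ago2a), against -0.34 and -0.44 for all 60 WRKY genes and 0.08 and 0.03 for all loci. Its 7 measured genes of 11 named include WRKY54, which acts with WRKY46 in brassinosteroid responses and drought, at 1929 and 2039 (WT), 3036 and 2504 (ago2a), and 1385 and 1566 (ago2c). WRKY54 was 2.19-fold and 1.6-fold lower in ago2c than in ago2a. WRKY63, also called ABO3 and acting in abscisic acid responses, had 29.7 and 51.4 (WT), 71.7 and 45.1 (ago2a), and 36.7 and 39.5 (ago2c), and was 1.95-fold lower in mock and 1.14-fold lower after irradiation. In response to irradiation group III had medians of -0.70 (WT), -0.36 (ago2a) and 0.18 (ago2c). The difference between ago2c and ago2a after irradiation lies within an array set, whereas the one in mock does not, and both lie across slides.

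Regulators that act on WRKY proteins or genes were read from a list of 13, all of them measured, and none passed any test. The kinases MPK3, MPK4 and MPK6, which phosphorylate WRKY proteins, had responses between -0.49 and 0.16 on the log2 scale. The VQ protein genes SIB1, whose product binds WRKY33, and JAV1, whose product binds WRKY51, were 2.71-fold and 2.19-fold lower in ago2c than in ago2a in mock and 1.75-fold and 1.99-fold lower after irradiation. Those 2 were the regulators at least 2-fold apart between the lines in mock, and none was after irradiation. Of all loci 5.77% in mock and 3.68% after irradiation were at least 2-fold lower in ago2c.

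Of 15 genes known as direct or likely targets of WRKY proteins 11 were measured. None passed the tests for irradiation, genotype or response difference, and ACS2, an ethylene synthesis gene bound by WRKY33, passed the comparison of lines. ACS2 had 109.7 and 77.4 (WT), 306 and 166 (ago2a), and 32.6 and 20.0 (ago2c), and was 9.38-fold lower in ago2c than in ago2a in mock and at least 6.42-fold lower after irradiation, where ago2c was not well above background (limma adjusted p = 0.032). In each treatment 7 of the 11 were at least 2-fold under ago2a in ago2c (5.77% and 3.68% of all loci), 6 of them with dim arrays at their bound, which leaves out PR1, and the median was -1.99 in mock and -1.30 after irradiation. PAD3, the last step of camalexin synthesis and a target of WRKY33, had 529 and 1543 (WT), 2514 and 2542 (ago2a), and 356 and 591 (ago2c). ICS1, the salicylic acid synthesis gene activated by WRKY28 and WRKY46, had 1275 and 718 (WT), 2226 and 1674 (ago2a), and 364 and 499.5 (ago2c). In both genes ago2a was the highest line and ago2c the lowest in each treatment, which is the order of WRKY30, WRKY46, WRKY54 and WRKY55.

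PR1, a salicylic acid marker with W boxes in its promoter, did not have that order. It had 567 and 735 (WT), 60.5 and 46.7 (ago2a), and 15.3 and 14.7 (ago2c), the last 2 not well above background. WT was 9.36-fold and 15.7-fold over ago2a and at least 22.7-fold over ago2c (log2 genotype difference -4.52 ± 0.74, SE, limma adjusted p = 0.64). PHT1;1, a phosphate transporter of the root regulated by WRKY45 and WRKY75, had responses of 0.64 (WT), -1.47 (ago2a) and -1.65 (ago2c). PHO1, which loads phosphate into the xylem and is repressed by WRKY6, had 0.15, -0.93 and -0.93. Both had the directions of WRKY9 and WRKY36, and neither passed the response difference test (limma adjusted p = 0.16 and 0.22).

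The threshold on background left out WRKY10, WRKY34, WRKY42, WRKY64, WRKY66, WRKY67 and WRKY68, which were above it on no array, and WRKY62, which was above it on 1. WRKY10 and WRKY34 are known from the seed and from pollen. WRKY31 was just inside with 2 arrays, and WRKY58 and WRKY71 had 3. WRKY4 and WRKY61 had no matched probe. Of the 60 measured genes 23 had several probes. They differed by over 2-fold in the WT response for WRKY56, in the ago2a response for WRKY17 and WRKY35, and in no ago2c response. In the comparison of ago2c with ago2a they did so for WRKY19, WRKY35 and WRKY59 in mock and for WRKY59 after irradiation. But each of the 2 probes of WRKY59 was well above background on 4 arrays only, and that difference has no measured size. The sign differed between probes for 3 genes in the WT response, 5 in the ago2a response and 4 in the ago2c response. For ago2c over ago2a it did so for 3 genes in mock and 8 after irradiation.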

How the data were processed

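Cy3-labelled RNA of seedlings was hybridised to 1-colour Agilent arrays, 1 per condition, per the labels. Spot intensities in the deposited files came from the scanner software (per the file headers, Feature Extraction 11.0.1.1), and the intensity used was its background-corrected processed signal. The authors' deposited value table holds a linear ratio whose scale is not stated. By comparison with the scanner files its values were processed signals over the array median and over a further value per probe of unstated origin, with column medians of 0.878 to 1.06. It served as an alternative.

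Without control and outlier spots 53 probes had no value. Replicate spots were averaged, and each array's 75th percentile was subtracted from its log2 processed signals. Of 43603 probes 34309 found a locus by accession in a RefSeq gene table (assembly TAIR10.1) and 9241 had no match. The brightest probe well above background on at least 2 arrays stood for its locus (20171 of 25388 loci). Models were fitted over all loci with limma 3.58.1 in R 4.3.3 with Benjamini-Hochberg adjustment at 0.05. They had 2 residual degrees of freedom for irradiation (line as block) and for ago2c against ago2a, 3 for genotype and 1 for the response difference. Each SE given is that of the limma fit, with a variance moderated over all loci, and not a plain SE of the line values. The p-values measure the spread between single pooled samples. For irradiation and the response difference the lines stood in for replicates. For ago2c against ago2a the treatments of each line took that place, and for genotype the treatments and the ago2 lines together. The calls of WRKY59, WRKY30 and ACS2 therefore rest on a gap seen in both treatments, with no replicate sample of either line. A 2-fold count needed the brighter array well above background. Folds against arrays not well above background are bounds, taken against the higher of the probe's own signal and the array's lowest signal that was well above background. The fits were tested on simulated data, but the outcome is not given here and lends the calls no support.

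Structural groups, regulators, targets and markers were assigned by hand from general knowledge of the family. The members, the lists and the tests were chosen with earlier results of these data known. Named were members past a test, up to 12 each way for irradiation with the same sign in 3 lines, 8 each way for genotype with the same sign in 4 pairs, 6 each way for the response difference, the 4 brightest probes, group IIa, genes whose probes disagreed, and up to 6 genes per pathway list. Those named for irradiation or genotype also had to be well above background on every array of the brighter treatment or genotype. Other members are given as examples of their group, chosen after their values were seen. Sequences were not used here. Alternatives tried were background correction by normexp (offset 50), scaling by quantiles or by the median, the authors' values, other filters, other probe summaries, a 3-fold threshold, array set or slide as a block and leaving out each line.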

Additional observations from a re-analysis of the deposited data

Results flagged for a closer look

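For 6 WRKY genes the irradiated array was above the mock array in WT and at least 2-fold below it in both ago2 lines. At least 2-fold lower in both ago2 lines and not in WT were 3.48% of all loci. The set was chosen after values were seen, and it held 1 gene with normexp correction and 3 with median scaling. The second probe of WRKY56 had a WT response of -1.31, so that its place in the set depends on the probe. The response of the ago2 lines minus that of WT was -1.74 on the log2 scale for WRKY24, -1.64 for WRKY36, -1.62 for WRKY65, -1.59 for WRKY9, -1.55 for WRKY56 and -1.53 for WRKY72. The limma test of the difference itself, with 1 residual degree of freedom, gave adjusted p from 0.16 to 0.23, so that none passed. The median response of 14 root markers was -0.02 (WT), -1.43 (ago2a) and -1.51 (ago2c), and its part in these values was not tested.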

How the results depend on the processing

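Each result was recomputed under the alternatives planned for it. A line was left out for irradiation and genotype, and WT for ago2c against ago2a. The response difference then has no residual degrees of freedom. Of the recomputed counts and medians 151 kept within 1.5 times the count, or within the spread between lines, and 31 did not. No WRKY gene was called lower for irradiation in the main setting, and leaving out a line gave 0 to 8, the 8 without WT (4.7% of all loci). Among those 8, the calls of WRKY31 and WRKY71 rest on arrays not well above background. For the response difference normexp gave 3 lower in place of 0, where 3.09% of all loci were. Median scaling and the authors' values each gave 2 lower (2.65% and 2.67% of all loci) and 1 higher (0.501% in both). For ago2c against ago2a 2 were lower, with 0.203% of all loci. Normexp, median scaling, the authors' values and leaving out WT each gave 5 (0.575%, 0.947%, 0.927% and 1.1% of all loci). Quantile normalization and the mean of probes gave 1 (0.119% and 0.124%). No filter or the median of the other probes gave 0 (0% and 0.0149%). Members at least 2-fold lower in WT, 2 in the main setting, were 1 with normexp, with probes above background on all 6 arrays or at 3-fold, and the 3 higher were 0 at 3-fold. In ago2a the 12 lower were 4 with normexp and 2 at 3-fold. The 1 higher there was 3 with median scaling, quantile normalization, the authors' values or the other probes, and 0 with all 6 arrays or at 3-fold. In ago2c the 7 lower were 1 with normexp or at 3-fold, and the 1 higher was 0 with all 6 arrays. The 6 genes lower in both ago2 lines and not in WT were 1 with normexp and 3 with median scaling or the authors' values. The median ago2a response was -0.039 with median scaling and -0.0405 with the authors' values, where the median of all loci moved from 0.06 to 0.25. For the 2-fold counts recomputed here the shares of all loci are not given. The causes were not tested.

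Direction turned for single genes. The irradiation response was -0.0819 with the other probes for WRKY32 and -0.082 for WRKY3, and for WRKY40 it ran from -0.42 without WT to 0.0599 without ago2c. The genotype difference was 0.20 for WRKY71, 0.10 for WRKY13 and 0.0819 for WRKY12 with normexp, 0.0235 for WRKY12 with quantile normalization, and 0.049 with median scaling and 0.0477 with the authors' values for WRKY1. The response difference of WRKY56 was 0.37 with the other probes. The comparison of lines with its fit without WT, the other probes, the counts of members lower in both ago2 lines or opposite to WT, and the counts at the bound were chosen after seeing the data. The irradiation test already compared arrays within a line. For genotype, array set or slide as a block left 0 calls, as without them. Members near background, such as WRKY31, WRKY58 and WRKY71, are limited by signal, and the single arrays give no spread between replicates of a condition.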
